A study of Mus musculus with 12 samples.

Results

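Transcripts of 10 circadian clock genes were followed in primary mouse hepatocytes. They were taken by name: the activators Arntl and Clock, the repressors Per1, Per2, Per3, Cry1 and Cry2, and the output transcription factors Dbp, Tef and Nfil3. All 10 of the 10 were found among the 46983 genes counted, and all 10 had enough counts to be tested. The hepatocytes, the main parenchymal cells of the liver, came from mice with wild-type AEG-1 (AEG-1-WT) or from AEG-1-L24K/L25H knock-in mice, in which CRISPR/Cas9 had changed 2 neighbouring leucines of AEG-1, a protein also called metadherin. Both genotypes were on a C57BL/6/J background, were littermates from matings of heterozygotes and ate regular chow. Cells of each genotype were left untreated or exposed for 24 h to 2.5 µM CP775146, which activates the nuclear receptor PPAR-alpha. The edit changes codons, so gene counts do not check it. RNA sequencing gave 3 libraries in each of the 4 groups, 12 in all. The labels name no vehicle for the untreated cells and do not give the age, sex or number of the mice, the time of day at which cells were isolated or harvested, or the number of knock-in founders. Nor do they tie the libraries to individual mice or cultures, so p-values measure the spread between these libraries, which may be technical. With 1 time point per group, a change in the phase of a rhythm and a change in its mean level cannot be told apart.

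In the molecular clock, the proteins encoded by Arntl and Clock pair and bind E-box sequences, where they switch on the Per and Cry genes. The PER and CRY proteins gather, enter the nucleus and block their own activators, and their decay opens the next daily cycle. A second arm runs through the D-box, a sequence bound by the activators DBP and TEF and by the repressor NFIL3. In the liver this clock is known for timing glucose, lipid, bile acid and drug metabolism, and PPAR-alpha is itself known as a rhythmic gene there.

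RefSeq promoter windows on GRCm38.p6, the 250 bases before each annotated start, were searched on both strands for the E-box CACGTG, the E-box variant CACGTT and the D-box TTATGTAA. Windows were on hand for 9 of the 10 genes, 14 windows in all, and Per2 was not matched. Windows of 5 genes are shown because they held matches to these letters. Capitals mark the matched E-boxes and D-boxes, and AACGTG is CACGTT read on the other strand.
Per1: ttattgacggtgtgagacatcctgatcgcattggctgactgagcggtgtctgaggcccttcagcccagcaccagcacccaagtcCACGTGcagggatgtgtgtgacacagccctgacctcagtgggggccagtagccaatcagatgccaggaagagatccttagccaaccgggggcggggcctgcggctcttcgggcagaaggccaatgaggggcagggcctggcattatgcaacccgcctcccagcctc
Cry1: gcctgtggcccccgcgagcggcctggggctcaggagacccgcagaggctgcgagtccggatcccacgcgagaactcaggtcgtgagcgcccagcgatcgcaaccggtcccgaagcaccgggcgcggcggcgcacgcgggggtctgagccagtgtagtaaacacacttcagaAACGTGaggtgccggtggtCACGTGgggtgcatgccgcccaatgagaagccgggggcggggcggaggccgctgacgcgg
Cry2: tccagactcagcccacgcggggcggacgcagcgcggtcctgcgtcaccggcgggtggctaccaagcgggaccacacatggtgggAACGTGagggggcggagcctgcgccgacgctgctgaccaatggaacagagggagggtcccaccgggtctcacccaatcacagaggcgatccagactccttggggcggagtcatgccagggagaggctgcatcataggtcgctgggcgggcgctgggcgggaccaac
Tef: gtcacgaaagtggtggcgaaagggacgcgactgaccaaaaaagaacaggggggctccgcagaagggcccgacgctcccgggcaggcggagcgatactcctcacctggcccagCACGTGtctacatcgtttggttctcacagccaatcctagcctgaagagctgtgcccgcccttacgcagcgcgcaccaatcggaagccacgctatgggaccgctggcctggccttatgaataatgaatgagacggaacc
Per3: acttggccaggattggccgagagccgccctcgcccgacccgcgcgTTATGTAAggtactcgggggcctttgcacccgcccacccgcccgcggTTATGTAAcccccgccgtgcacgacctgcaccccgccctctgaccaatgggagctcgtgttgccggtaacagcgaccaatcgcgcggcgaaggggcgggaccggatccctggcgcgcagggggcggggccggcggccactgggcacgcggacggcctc
One of the Per1 windows (chr11:69098699-69098948, plus strand) held CACGTG starting 166 bases before the annotated start. The other Per1 window held none of the elements searched. The Cry1 window (chr10:85185055-85185304, minus strand) held CACGTG at 60 bases and CACGTT at 79 bases before the start. In the Cry2 window (chr2:92434070-92434319, minus strand) only the variant CACGTT was matched, 166 bases before the start. One of the Tef windows (chr15:81811164-81811413, plus strand) held CACGTG 138 bases before the start. The Per3 window (chr4:151044666-151044915, minus strand) was matched by TTATGTAA at 205 and at 158 bases before the start, and held neither CACGTG nor CACGTT. Of 32817 RefSeq promoter windows of the same length, CACGTG was in 6.02%, CACGTT in 3.85% and TTATGTAA in 0.817%. The other Tef window, which lies in annotated exons, held CACGTG at 127 bases before its start. The short glucocorticoid element AGAACA, in 16.1% of all windows, was matched in the Tef window shown, 209 bases before the start. A further 4 elements, the second D-box TTACGTAA (0.113% of all windows), the cyclic AMP element TGACGTCA (1.55%), the DR1 element of PPAR and its partner RXR (0.0335%) and the full palindromic glucocorticoid element (0.00914%), were matched in no window of the 9 genes. These matches are letters in a window and were not measured as binding sites here.

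Libraries held 26956032 to 34885451 counts, and 15664 genes were tested. Levels are CPM, counts divided by library size and put on a common scale, with library sizes adjusted by the trimmed mean of M values (TMM). Changes are log2 fold changes with their standard error (SE), and a gene is said to rise or fall where the adjusted p of edgeR's quasi-likelihood test was below 0.05. The biological coefficient of variation between libraries was 5.09% in untreated wild type, 5.32% in treated wild type, 2.57% in untreated knock-in and 2.61% in treated knock-in. All 10 hepatocyte markers were expressed, with summed levels of 121842 to 124948 CPM in untreated wild type, 122142 to 129170 CPM in treated wild type, 84231.5 to 88842.8 CPM in untreated knock-in and 76320.9 to 79277 CPM in treated knock-in. Most of this sum was Alb, and single markers moved differently: with the drug in wild type 2 of the 10 rose and 5 fell, among them Cps1 (1969.7 to 542 CPM) and Tat (134 to 23.7 CPM). Other cell types were also followed by their markers, and the sums of several moved with the groups. For 7 macrophage markers the sums in the same order of groups were 212 to 252, 185 to 189, 151 to 160 and 106 to 121 CPM, mostly from Cd68, with 5 of the 7 under 1 CPM in every library. The other macrophage markers did not follow Cd68 between genotypes: of 6 tested, 1 rose and 1 fell untreated, and 3 rose (Clec4f, Cd5l and Lyz2) and 1 fell treated. For 7 stellate and fibroblast markers the sums were 187 to 219, 159 to 197, 108 to 122 and 67.2 to 77.9 CPM, mostly from Reln, with 3 of the 7 under 1 CPM. Of the 6 tested, only 2 fell in each genotype comparison, and none rose. For 7 endothelial markers the sums were 76.1 to 87.5, 65.9 to 68.5, 46.3 to 51.9 and 34.7 to 40.02 CPM, mostly from Stab2, with 1 of the 7 under 1 CPM, and 2 of the 6 tested fell in each genotype comparison. For 6 cholangiocyte markers they rose from 15.1 to 18.0 in untreated wild type to 32.8 to 33.8, 40.8 to 43.4 and 48.3 to 52.5 CPM. All 5 lymphocyte and neutrophil markers and all 3 mesothelial markers were under 1 CPM in every library. The part of these marker levels in the results on the clock genes was not tested. In bulk RNA, fewer cells of a type and less RNA per cell cannot be told apart.

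Per unit of exon length, Nfil3 was the most abundant of the 10 transcripts in untreated wild-type cells, at 30.3 CPM per kb. Per1 followed at 18.5, Arntl at 11.1, Tef at 9.60, Clock at 8.90, Cry2 at 8.86, Cry1 at 7.10 and Per2 at 4.73 CPM per kb. Per3 and Dbp were scarce, at 0.784 and 0.332 CPM per kb. Clock and Cry2 overlapped between libraries and had no clear order. Nfil3 and then Per1 stood first, and Cry1, Per2, Per3 and Dbp stood last, in all 4 groups. The middle of the order moved. In treated wild-type cells Clock and Arntl overlapped at 10.4 and 10.2 CPM per kb, and in treated knock-in cells Clock, at 9.83, stood above Arntl, at 8.73.

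**Figure D1:**
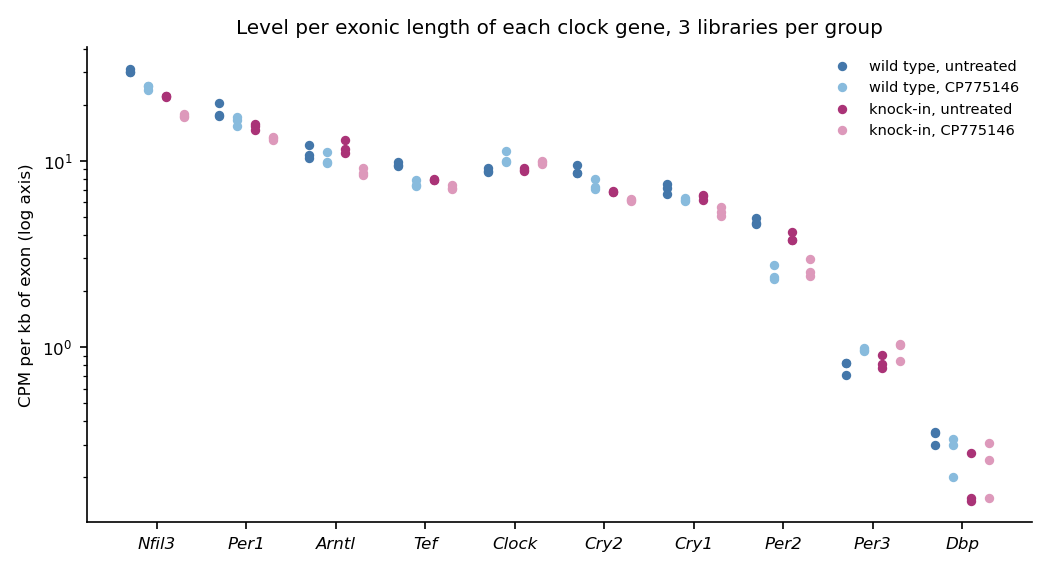
Level of each clock gene per kb of exon (CPM per kb, log axis) in the 4 groups; points are libraries. Nfil3 and Per1 lead in every group, and Per3 and Dbp are the scarcest.

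Of the 10 clock genes, 7 were lower in untreated knock-in cells than in untreated wild-type cells, and none was higher (2 rose and 5 fell under total-count scaling). None rose and 5 fell with DESeq2, and none rose and 6 fell with RLE scaling. The 7 were Per1, Per2, Cry1, Cry2, Dbp, Tef and Nfil3, which are the repressors other than Per3 and all 3 output factors, while the activators Arntl and Clock did not pass the test. Among the 7, the calls of Cry1 and Dbp were kept in only 4 and 7 of 12 fits with 1 library left out. Of all tested genes, 37.0% were called in this comparison, 18.4% higher and 18.6% lower. The median change of the 10 was -0.28 against -0.004 for all tested genes. CP775146 lowered 6 and raised 2 of the 10 in wild-type cells, where 45.0% of all genes were called (22.7% higher, 22.3% lower). It lowered 7 and raised 2 in knock-in cells, where 37.2% were called (18.1% higher, 19.1% lower). These shares rest on 1 estimate of the spread for all 4 groups, although libraries varied more in wild type. In fits of the compared groups alone, the drug called 6129 of 14763 genes in wild type and 6933 of 15164 in knock-in cells. Which genotype had more calls therefore depended on the fit. Median changes of the 10 were -0.23 and -0.18 in the 2 genotypes, against -0.005 and -0.01 for all genes. With CP775146 present in both genotypes, 5 of the 10 were lower in knock-in cells and none was higher (1 rose and 3 fell under total-count scaling), where 42.5% of genes were called (20.5% higher, 22.0% lower) and the median changes were -0.22 for the 10 and -0.013 for all genes.

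**Figure D2:**
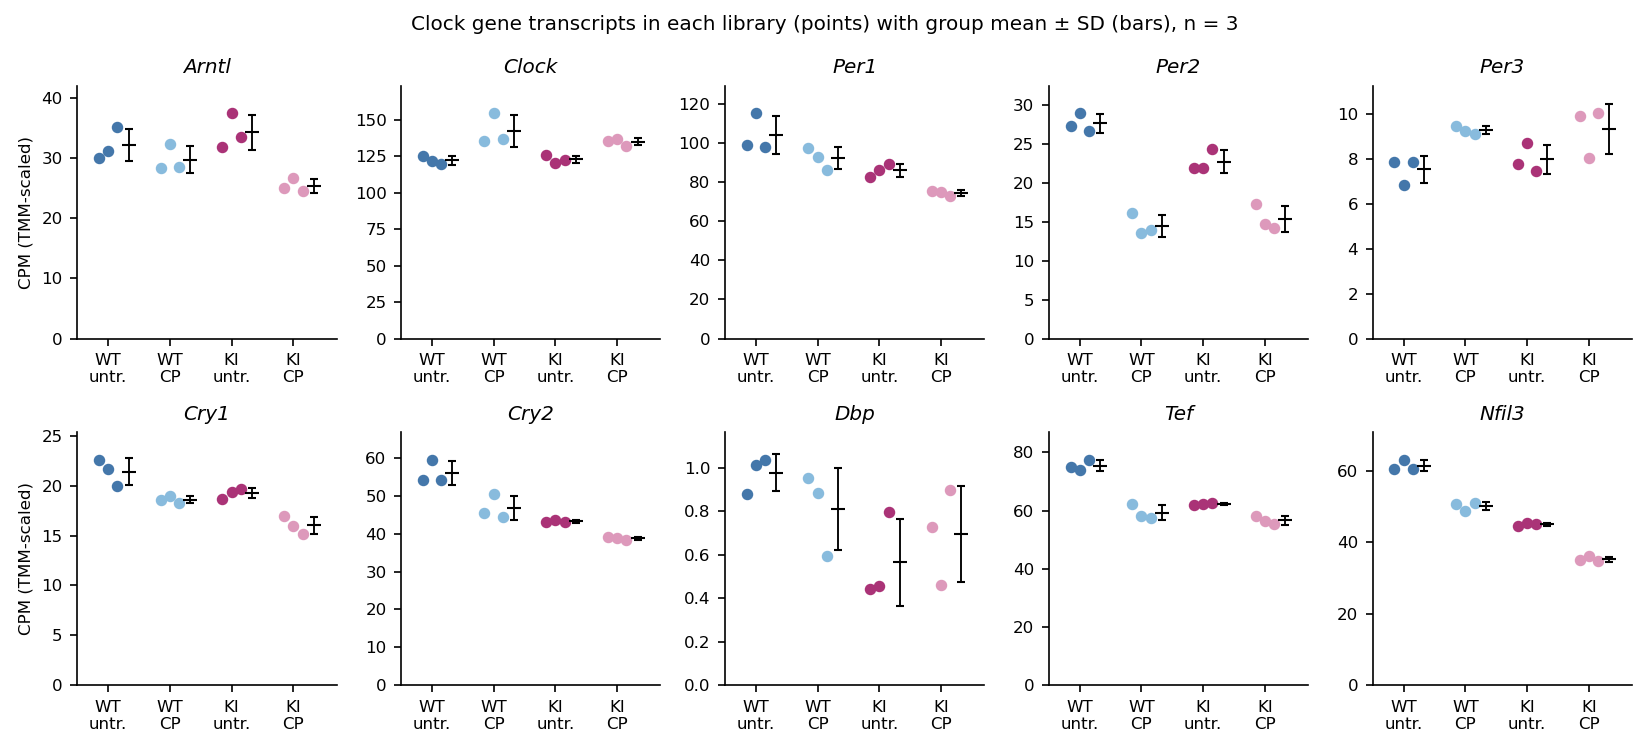
Levels of the 10 clock genes in CPM (linear axes from 0) in each of the 12 libraries, with the mean ± SD of each group of 3; WT is wild type, KI is knock-in, untr. is untreated and CP is CP775146. Per2 is lower in every treated library of either genotype than in every untreated library, and Nfil3 steps down over the 4 groups.

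The count of genes that moved with the drug in the same direction in both genotypes was 8: Clock and Per3 rose, and Per1, Per2, Cry1, Cry2, Tef and Nfil3 fell. These were all 8 called in wild type and 8 of the 9 called in knock-in cells. Of all genes, 28.2% were called the same way in both genotypes, 14.2% higher and 14.0% lower. For the knock-in, Per1, Cry1, Cry2 and Nfil3 were lower both without and with the drug, which is 4 of the 7 and 4 of the 5 called. The matching share of all genes was 26.6%, of which 13.1% were higher and 13.5% lower. Those 2 drug comparisons share no library, and neither do the 2 genotype comparisons. Each drug comparison does share a group of libraries with each genotype comparison, and all came from the same scaling and fit. Untreated wild type, for example, is in both the wild-type drug comparison and the untreated genotype comparison.

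**Figure D3:**
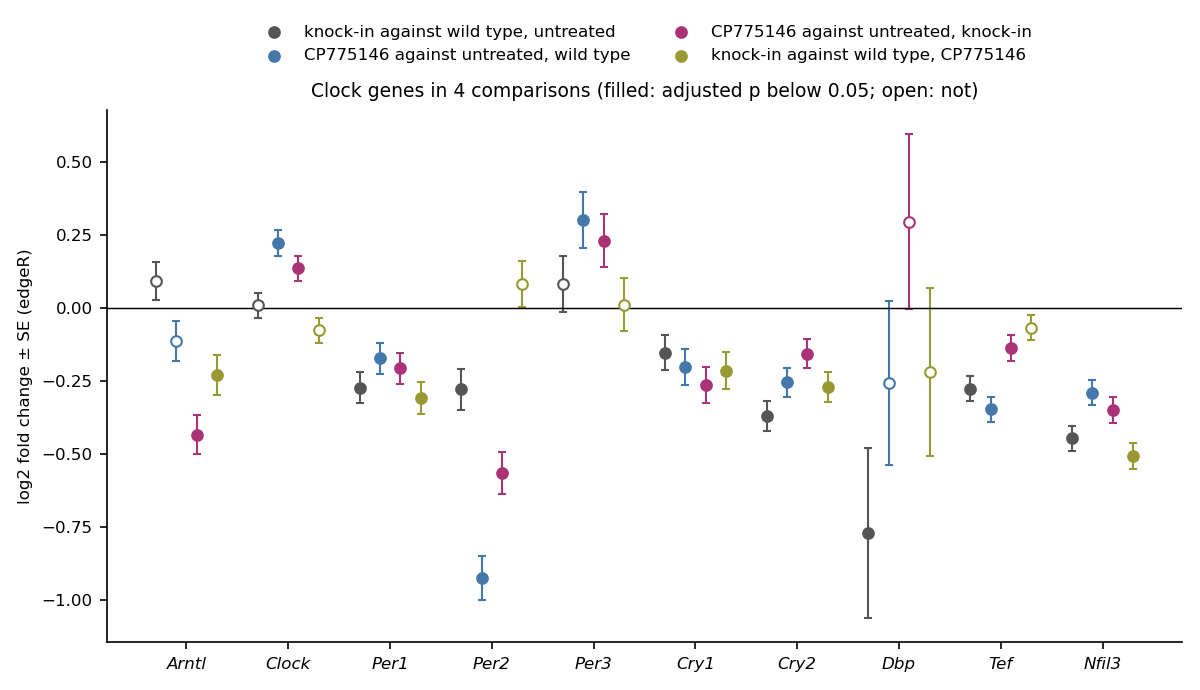
Log2 fold change ± SE of each clock gene in the 4 pairwise comparisons; filled points have an edgeR adjusted p below 0.05. With TMM scaling no gene is called higher in the knock-in (Arntl, Clock and Per2 are under total-count scaling), and Clock and Per3 are called higher with CP775146.

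Arntl (ENSMUSG00000055116, mm10 chr7:113207465-113314122, plus strand) encodes BMAL1, the partner whose loss by itself abolishes daily rhythms in mice. Its level was 30.04, 31.2 and 35.2 CPM in untreated wild type and 28.3, 32.3 and 28.6 CPM in treated wild type. In knock-in cells it was 31.8, 37.4 and 33.5 CPM untreated and 24.9, 26.7 and 24.4 CPM treated. The 3 treated knock-in libraries were the lowest of the 12, and the other 3 groups overlapped. Arntl fell with CP775146 in knock-in cells, by 0.43 ± 0.07 (SE) on the log2 scale (edgeR adjusted p = 7.44e-06). In wild-type cells the change was -0.11 ± 0.07 (adjusted p = 0.186). The responses themselves differed by -0.32 ± 0.10 (interaction adjusted p = 0.0379). Under treatment Arntl was lower in knock-in than in wild-type cells, by -0.23 ± 0.07 (adjusted p = 0.00771), and that call was lost without treated wild-type replicate 2 (-0.16, adjusted p = 0.0791) and under total-count scaling (-0.09, adjusted p = 0.279).

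Clock (ENSMUSG00000029238, chr5:76209868-76304792, minus strand), which encodes the other activator, moved the opposite way. Untreated libraries held 125, 122 and 120 CPM in wild type and 126, 120 and 123 CPM in knock-in cells. Treated libraries held 135, 155 and 137 CPM in wild type and 135, 137 and 132 CPM in knock-in cells. Every treated library was above every untreated one, and the genotypes overlapped. Clock rose by 0.22 ± 0.04 (adjusted p = 0.000126) in wild type and by 0.14 ± 0.04 (adjusted p = 0.0143) in knock-in cells. The second of these calls was lost without untreated knock-in replicate 2 or treated knock-in replicate 2 (largest adjusted p = 0.0767) and under total-count scaling (0.07, adjusted p = 0.201).

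Per2 (ENSMUSG00000055866, chr1:91415982-91459324, minus strand), whose protein is a core repressor of the loop, had the largest response to the drug among the 10. In wild-type cells it went from 27.3, 29.0 and 26.7 CPM untreated to 16.2, 13.5 and 13.9 CPM treated. In knock-in cells it went from 22.0, 21.9 and 24.4 CPM to 17.3, 14.8 and 14.2 CPM. Untreated knock-in libraries lay below untreated wild-type libraries, whereas the treated libraries of the 2 genotypes overlapped. Per2 fell 1.9-fold in wild type (-0.93 ± 0.08, adjusted p = 3.37e-11) and 1.48-fold in knock-in cells (-0.57 ± 0.07, adjusted p = 3.62e-07). Of tested genes, 7.95% and 12.9% had a larger change in those comparisons. The fall was smaller in knock-in cells, by 0.36 ± 0.10 (interaction adjusted p = 0.0342), a call kept in only 5 of 12 fits with 1 library left out. Untreated knock-in cells held less Per2 (-0.28 ± 0.07, adjusted p = 0.00215), and with the drug the difference was 0.08 ± 0.08 (adjusted p = 0.446).

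Per1 (ENSMUSG00000020893, chr11:69095217-69109960, plus strand), a repressor gene that also answers quickly to hormones, fell in all 4 comparisons. Wild-type libraries held 99.0, 115 and 97.8 CPM untreated and 97.3, 93.0 and 86.2 CPM treated. Knock-in libraries held 82.4, 86.3 and 89.2 CPM untreated and 75.6, 74.8 and 72.9 CPM treated. The 3 treated knock-in libraries were the lowest of the 12, and treated wild type overlapped untreated knock-in. The genotype difference was -0.27 ± 0.05 untreated (adjusted p = 0.000186) and -0.31 ± 0.05 treated (adjusted p = 4.18e-05). The drug changed Per1 by -0.17 ± 0.05 in wild type (adjusted p = 0.00984) and by -0.21 ± 0.05 in knock-in cells (adjusted p = 0.00321). The wild-type drug call was lost without untreated wild-type replicate 2 (-0.09, adjusted p = 0.136) and without treated wild-type replicate 3.

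Per3 (ENSMUSG00000028957, chr4:151003652-151044665, minus strand), the third Per paralog and one not needed for rhythm in most tissues, moved against its relatives. It held 7.88, 6.84 and 7.88 CPM in untreated and 9.46, 9.26 and 9.11 CPM in treated wild-type cells. In knock-in cells it held 7.79, 8.70 and 7.44 CPM untreated and 9.90, 8.07 and 10.05 CPM treated. The wild-type groups did not overlap and the knock-in groups did. Per3 rose by 0.30 ± 0.10 in wild type (adjusted p = 0.0118) and by 0.23 ± 0.09 in knock-in cells (adjusted p = 0.0484). The first call was lost without untreated wild-type replicate 2 and under total-count scaling (largest adjusted p = 0.0872), and the second was lost when any 1 of 5 libraries was left out and in 4 of 8 other settings (largest adjusted p = 0.231). Between genotypes the change was 0.08 ± 0.10 untreated and 0.01 ± 0.09 treated, with adjusted p = 0.546 and 0.943.

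The cryptochromes, which carry the main repressing activity of the PER and CRY complex, both fell with the drug and both were lower in the knock-in. Cry2 (ENSMUSG00000068742, chr2:92403646-92434043, minus strand) held 54.1, 59.6 and 54.2 CPM in untreated and 45.6, 50.5 and 44.5 CPM in treated wild type. In knock-in cells it held 43.0, 43.7 and 43.1 CPM untreated and 39.3, 38.8 and 38.4 CPM treated. None of the 4 groups overlapped, and the levels stepped down in that order. Cry2 was lower in knock-in cells by -0.37 ± 0.05 untreated (adjusted p = 4.94e-07) and by -0.27 ± 0.05 treated (adjusted p = 5.75e-05). The drug changed it by -0.26 ± 0.05 in wild type (adjusted p = 0.000104) and by -0.16 ± 0.05 in knock-in cells (adjusted p = 0.0144), the last call being lost without treated knock-in replicate 3 (adjusted p = 0.054). Exons covering 4.67% of its length are shared with D930015M05Rik.

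Cry1 (ENSMUSG00000020038, chr10:85131702-85185054, minus strand) moved less. It held 22.6, 21.6 and 19.9 CPM in untreated and 18.6, 19.0 and 18.3 CPM in treated wild type. In knock-in cells it held 18.7, 19.4 and 19.6 CPM untreated and 17.0, 15.9 and 15.2 CPM treated. Untreated wild type was the highest group and treated knock-in the lowest. With the drug Cry1 fell by 0.20 ± 0.06 in wild type (adjusted p = 0.0088) and by 0.26 ± 0.06 in knock-in cells (adjusted p = 0.00103), and the wild-type call was lost without untreated wild-type replicate 1. The genotype difference was -0.22 ± 0.06 treated (adjusted p = 0.00645), lost without treated knock-in replicate 3 (adjusted p = 0.0523) and under total-count scaling (-0.08, adjusted p = 0.318). It was -0.15 ± 0.06 untreated (adjusted p = 0.0488), and this call was lost without any 1 of 8 libraries and in 6 of 8 other settings (largest adjusted p = 0.529).

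Nfil3 (ENSMUSG00000056749, chr13:52967209-52981073, minus strand), the repressor of D-box genes, had the smallest adjusted p of the 10 in both genotype comparisons. It held 60.5, 63.2 and 60.7 CPM in untreated and 50.9, 48.8 and 51.0 CPM in treated wild type. In knock-in cells it held 44.7, 45.4 and 45.1 CPM untreated and 35.1, 36.1 and 34.8 CPM treated. No group overlapped another. Nfil3 was lower in knock-in cells by -0.45 ± 0.04 untreated (adjusted p = 8.73e-10) and by -0.51 ± 0.04 treated (adjusted p = 9.92e-11). The drug lowered it by -0.29 ± 0.04 in wild type (adjusted p = 1.81e-06) and by -0.35 ± 0.04 in knock-in cells (adjusted p = 1.58e-07). All 4 calls held in every alternative and with any 1 library left out. Of all tested genes, 20.0% and 18.5% had a larger genotype difference untreated and treated.

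Tef (ENSMUSG00000022389, chr15:81802421-81826861, plus strand), a D-box activator, was highest in untreated wild type, at 75.1, 73.8 and 77.5 CPM. It held 62.4, 58.0 and 57.5 CPM in treated wild type, 62.0, 62.1 and 62.6 CPM in untreated knock-in and 58.2, 56.3 and 55.2 CPM in treated knock-in cells. The 3 lower groups lay close together, and treated cells of the 2 genotypes overlapped. Tef was lower in untreated knock-in cells by -0.28 ± 0.04 (adjusted p = 4.2e-06). With the drug it fell by 0.35 ± 0.04 in wild type (adjusted p = 9.02e-08) and by 0.14 ± 0.04 in knock-in cells (adjusted p = 0.0114), the second being lost without treated knock-in replicate 3 (adjusted p = 0.0664). The responses differed by 0.21 ± 0.06 (interaction adjusted p = 0.0304), and with the drug present the genotypes differed by -0.07 ± 0.04 (adjusted p = 0.218).

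Dbp (ENSMUSG00000059824, chr7:45705088-45710155, plus strand), a D-box activator known for very large daily swings in the liver, was the scarcest of the 10. Its raw counts were 24, 27 and 29 in untreated and 29, 26 and 16 in treated wild-type libraries. In knock-in libraries they were 14, 15 and 28 untreated and 23, 15 and 32 treated. In CPM the untreated knock-in libraries, at 0.442, 0.458 and 0.796, lay below the untreated wild-type libraries, at 0.879, 1.01 and 1.04. Dbp was lower by -0.77 ± 0.29 (adjusted p = 0.0376), a call that was lost without any 1 of 5 libraries and in 2 of 7 other settings (largest adjusted p = 0.150). No other comparison of Dbp passed the test, with adjusted p from 0.478 to 0.581. Of its exonic length, 491 bases (16.7%) are shared with Sphk2, a sphingosine kinase gene whose untreated genotype change was 0.12 (adjusted p = 0.147).

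Of the 10 genes, 3 responded differently to the drug in the 2 genotypes: Arntl, Per2 and Tef. Of all tested genes, 7.11% were called in this interaction test, 2.78% with a higher and 4.33% with a lower response in knock-in cells. Per2 and Tef fell less in knock-in cells, and Arntl fell more. With 1 library left out, the call was kept in only 4 of 12 fits for Arntl, 5 of 12 for Per2 and 4 of 12 for Tef. Each call was also lost in 1 of 7 other settings: Arntl under total-count scaling (adjusted p = 0.0749), Per2 with limma voom (0.0533) and Tef without a filter (0.0575). The number of clock genes called was 0 without untreated wild-type replicate 1, treated wild-type replicate 3, untreated knock-in replicate 2 or treated knock-in replicate 1, and 1 without untreated wild-type replicate 2, treated wild-type replicate 2 or untreated knock-in replicates 1 or 3. For the other 7 genes the difference of responses ran from -0.09 for Clock to 0.55 for Dbp, with adjusted p from 0.476 to 0.861.

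**Figure D4:**
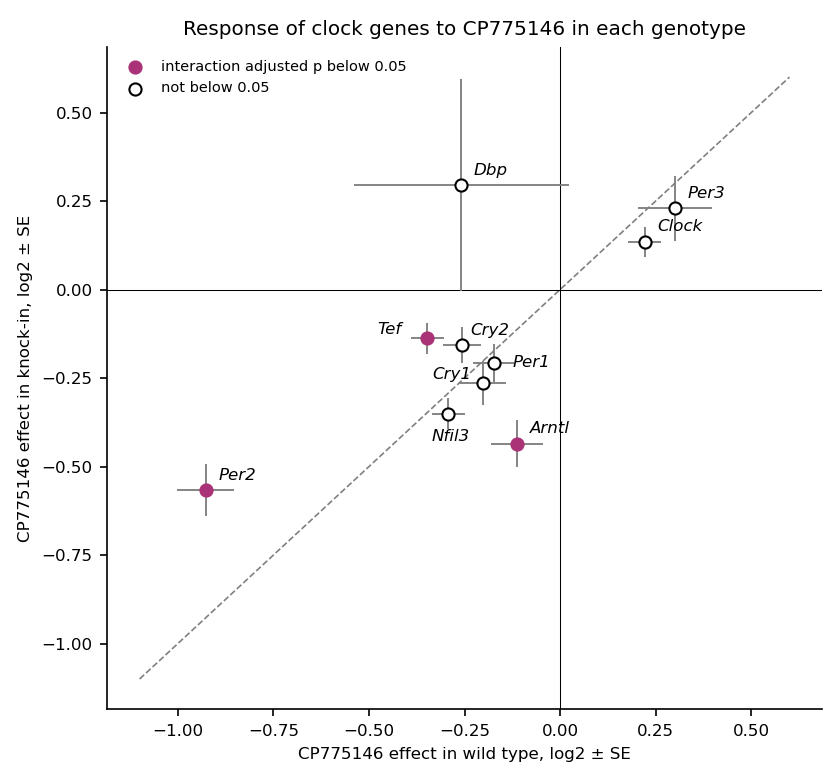
Log2 response to CP775146 in wild-type cells (horizontal) and knock-in cells (vertical), ± SE, for the 10 clock genes; the dashed line marks equal responses and filled points have an interaction adjusted p below 0.05. Per2 and Tef lie above the line and Arntl lies below it.

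Scaling bears on the direction of small changes. With total-count scaling in place of TMM, the median of all genes moved to 0.10 (knock-in, untreated), -0.10 (drug, wild type), -0.07 (drug, knock-in) and 0.12 (knock-in, treated). The clock genes that rose and fell were then 2 and 5, 1 and 7, 0 and 7, and 1 and 3. The genes that rose were Arntl and Clock in the untreated knock-in, Clock with the drug in wild type, and Per2 in the treated knock-in. Clock and Tef, neither of which passed the test between treated genotypes, changed sign there under that scaling, to 0.06 and 0.07.

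Other arms of the clock, among them the loop that sets the rhythm of Arntl, were read from 11 further genes, of which 10 were tested (Rorb had 0 counts in all 12 libraries). In the knock-in, 3 rose and 4 fell untreated, and 3 rose and 5 fell treated (3 and 2 under total-count scaling), where 37.0% and 42.5% of all genes were called. The drug raised 3 and lowered 2 in wild type, and raised 4 and lowered 2 in knock-in cells (2 and 3, and 3 and 5, under total-count scaling), where 45.0% and 37.2% of all genes were called. No gene of this set was called in the interaction test by edgeR, DESeq2 or limma voom, and 4 of them (Npas2, Arntl2, Nr1d1 and Hlf) had an unadjusted edgeR p below 0.05. Of all 15664 tested genes, 3147 had an unadjusted interaction p below 0.05, and 7.11% were called. Nr1d1, which encodes REV-ERB alpha, a repressor of Arntl, rose with the drug by 0.48 ± 0.10 in wild type (adjusted p = 0.000376) and by 0.78 ± 0.09 in knock-in cells (adjusted p = 9.27e-07). Its means were 15.3 ± 0.37 (SD, n = 3) and 21.4 ± 2.22 CPM in wild type, and 15.0 ± 2.2 and 25.9 ± 2.31 CPM in knock-in cells, untreated and treated. Treated knock-in cells held more Nr1d1 than treated wild-type cells, by 0.27, a call kept in 10 of 12 fits with 1 library left out. Exons covering 8.55% of the length of Nr1d1 are shared with Thra. In RefSeq windows the letters TAGGTCA, part of the element that REV-ERB proteins bind, were matched in Nfil3 12 bases before the start, on the other strand, and in 2.24% of all windows.

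**Figure D5:**
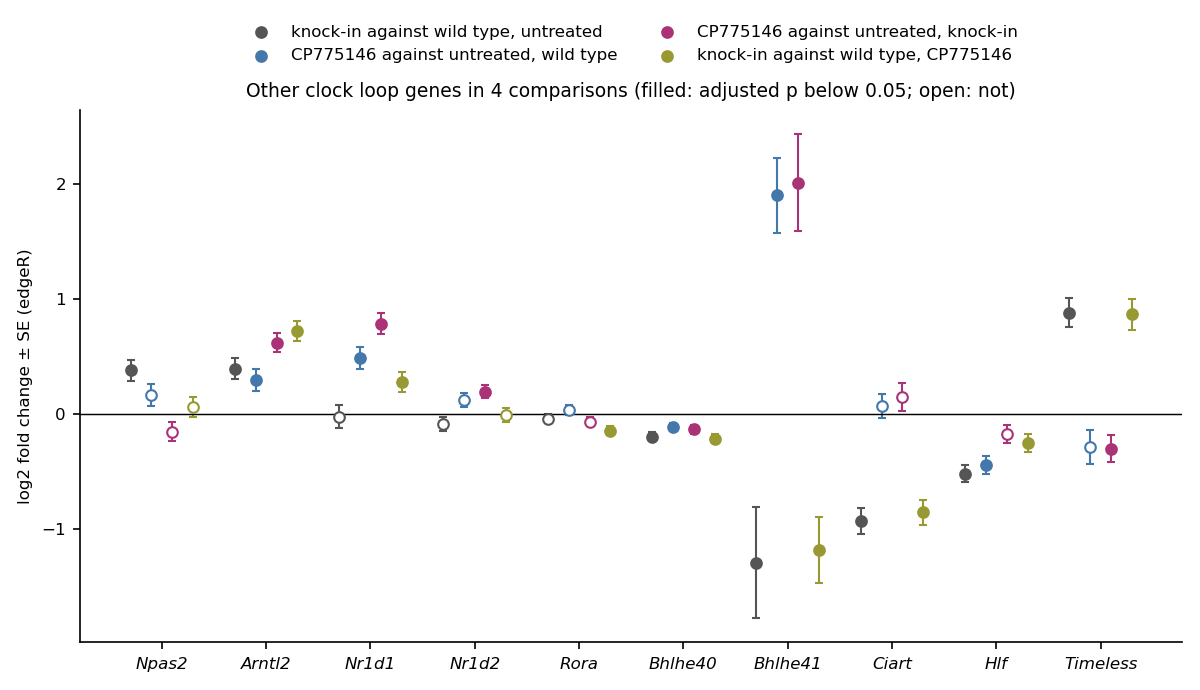
Log2 fold change ± SE of the other clock loop genes in the 4 pairwise comparisons; filled points have an edgeR adjusted p below 0.05. Bhlhe41 and Nr1d1 rise with CP775146, and Ciart is lower in the knock-in without and with the drug.

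Hlf, the remaining PAR bZIP factor and a relative of Tef and Dbp, was lower in untreated knock-in cells by -0.52 ± 0.07 (adjusted p = 1.69e-06) and fell with the drug in wild type by 0.45 ± 0.08 (adjusted p = 1.71e-05). Between treated genotypes Hlf was lower in the knock-in by -0.25. That call was kept in 11 of 12 fits with 1 library left out and in 7 of 8 other settings. Ciart, a repressor of the Clock and Arntl pair, was lower in the knock-in by -0.94 ± 0.11 untreated and -0.86 ± 0.11 treated (larger adjusted p = 1.82e-07). Bhlhe41, which encodes another E-box repressor, rose with the drug by 1.903 ± 0.33 in wild type and by 2.01 ± 0.42 in knock-in cells (larger adjusted p = 0.00133). Bhlhe41 was also lower in the knock-in, by -1.30 untreated and -1.19 treated. With 1 library left out, these calls were kept in 6 of 12 and 12 of 12 fits. Its group means were low, 0.337 to 3.16 CPM, and 19% of its exonic length is shared with Gm43909. Bhlhe40, its relative, fell in all 4 comparisons, by 0.12 to 0.22, with the wild-type drug call lost without untreated or treated wild-type replicate 1 and in a fit of the compared groups alone (adjusted p = 0.0512), and the treated genotype call lost under total-count scaling. Npas2, a stand-in for Clock, was higher in untreated knock-in cells by 0.38 ± 0.09 (adjusted p = 0.00127). Timeless, better known for its part in DNA replication than in the mammalian clock, was higher in the knock-in by 0.88 ± 0.13 untreated and 0.87 ± 0.14 treated (larger adjusted p = 4.64e-06). Arntl2, a relative of Arntl, rose with the drug in knock-in cells by 0.62 ± 0.08 (adjusted p = 3.64e-07) and was higher in treated knock-in than in treated wild-type cells by 0.72 ± 0.08 (adjusted p = 3.4e-08). Nr1d2 rose with the drug in knock-in cells by 0.19, a call kept in 10 of 12 fits with 1 library left out. Rora was lower in treated knock-in than in treated wild-type cells by -0.15, a call kept in 12 of 12 such fits. Each of these 2 calls was kept in 7 of 8 other settings.

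Downstream, 15 rhythmic liver genes were counted. Of these 4 rose and 8 fell in untreated knock-in cells, 8 rose and 5 fell with the drug in wild type, 7 rose and 6 fell with the drug in knock-in cells, and 7 rose and 7 fell between treated genotypes. Under total-count scaling these were 5 and 7, 7 and 5, 7 and 6, and 7 and 4. The shares of all genes called in these comparisons were 37.0%, 45.0%, 37.2% and 42.5%. In the interaction test 9 of the 15 were called, against 7.11% of all genes. This list was chosen with earlier results of these data known, so the comparison is no test of rhythmic genes. Of the 9, 6 had a higher and 3 a lower response in knock-in cells (6 and 2 under total-count scaling). With any 1 library left out, 6 to 9 were called. Usp2, a deubiquitinase whose transcript follows the clock, was lower in all 4 comparisons, by -0.86 ± 0.09 in the untreated knock-in and by -1.48 ± 0.09 with the drug in wild type. Nr1i3, the gene of the xenobiotic receptor CAR, had counts that were higher with the drug by 1.72 ± 0.11 and 1.58 ± 0.10 in the 2 genotypes (larger adjusted p = 1.49e-13). Of its exonic length, 74.9% is shared with Tomm40l, and in these unstranded counts the 2 genes cannot be told apart there. Of 14 genes through which hormones and serum reset the clock, none rose and 8 fell with the drug in wild type, and none rose and 9 fell in knock-in cells. Of all genes, 22.7% were higher and 22.3% lower in the first comparison, and 18.1% and 19.1% in the second. Among those that fell were the glucocorticoid targets Sgk1 (-1.81 ± 0.05 and -1.59 ± 0.05), Klf15 (-0.96 ± 0.06 and -0.46 ± 0.06) and Tsc22d3 (-0.64 ± 0.05 and -0.76 ± 0.04). Between genotypes, 5 of the 14 rose and 5 fell untreated, and 7 rose and 5 fell treated (6 and 5, and 8 and 4, under total-count scaling). Of all genes, 37.0% and 42.5% were called there. Egr1 was higher in the knock-in by 0.96 untreated and 0.89 treated, and the change of Fkbp5 was -0.49 and -0.45. Of 20 genes for kinases, ubiquitin ligases and other modifiers of clock proteins, 5 rose and 8 fell with the drug in each genotype, and 2 rose and 9 fell in wild type and 3 rose and 11 fell in knock-in cells under total-count scaling. The shares of all genes called with the drug were 45.0% in wild type and 37.2% in knock-in cells. Csnk1e, the gene of casein kinase 1 epsilon, which marks PER for decay, fell by 0.49 ± 0.05 and 0.37 ± 0.05. Skp1a, of the ubiquitin ligases, rose by 0.60 and 0.44, and the change of Nono was -0.40 and -0.25. These genes had the smallest adjusted p of the list with the drug. Between genotypes, 2 of the 20 rose and 5 fell both untreated and treated (6 and 1, and 13 and 1, under total-count scaling). Of all genes, 37.0% and 42.5% were called between genotypes.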

How the data were processed

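RNA-seq gene counts of the 12 libraries were the deposited values. Per the file headers, the authors counted reads over exons by gene with featureCounts 1.6.2 on Subread alignments to mm10, using an Ensembl release 83 annotation, with no strand option given; the submitters' processing notes name featureCounts 1.4.6-p4, FastQC 0.11.2, cutadapt 1.9 and edgeR 3.18.1. Without strand, reads of overlapping genes cannot be told apart. IDs were matched to symbols for 46488 of 46983 genes, and 27924 had any count. In R 4.3.3, edgeR 4.0.16 (filterByExpr with a minimum count of 10 and a minimum total of 15, TMM, robust quasi-likelihood fit, 1 term per group over 12 libraries) tested 15664 genes, with Benjamini-Hochberg adjustment over all of them. The share of counts passing the filter was 99.9388% or more in every library. Coordinates are mm10. DESeq2 1.42.0 and limma 3.58.1 (voom with sample weights), RLE and total-count scaling, 2 other filters, fits of the compared groups alone, a replicate block and leaving out each library were alternatives. Their use on the other gene lists was chosen after seeing the data. The fitting code was tested on simulated data. The members and lists were chosen with earlier results of these data known. All 10 members and 8 loop genes were to be named whatever their values, and from each other list, up to 3 called genes per comparison with the smallest adjusted p. Only some of the genes so chosen from the other lists are named here. Contrary to that plan, log2 changes of the 8 loop genes are given only for comparisons in which they were called. For genes whose group means ranged over more than 1 log2 unit, the genes of most similar pattern were also to be named, and no member did. Another gene of the clock loop is not reported here and was left out of its list's counts.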

Additional observations from a re-analysis of the deposited data

Results flagged for a closer look

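The 7 genes here passed the test of the difference between the 2 genotypes' responses to CP775146 (edgeR interaction, knock-in response minus wild-type response, log2). They are the clock genes called and, from each other list, up to 3 called genes with the smallest adjusted p. Not every called gene is among them: 9 of the 15 rhythmic liver genes passed, 6 with a higher and 3 with a lower response in knock-in cells. Among the clock genes, those picked out were Arntl (-0.322), Per2 (0.36) and Tef (0.21). Among the other rhythmic or clock-resetting genes they were Alas1, the rate-limiting enzyme of haem synthesis (0.444), Cyp2a5, a cytochrome P450 (0.83), Gys2, liver glycogen synthase (-0.482), and Klf15, a glucocorticoid-responsive factor (0.501). Cyp2a5 is close in sequence to Cyp2a4, so reads may have been split between them and its value is uncertain. The calls of Arntl, Per2 and Tef were kept in only 4, 5 and 4 of 12 fits with 1 library left out. Those of Alas1, Cyp2a5, Gys2 and Klf15 were kept in 12 of 12.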

How the results depend on the processing

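The clock genes called in the 4 pairwise comparisons numbered 5 to 7 (knock-in, untreated), 6 to 9 (drug, wild type), 6 to 9 (drug, knock-in) and 4 to 5 (knock-in, treated) with any 1 library left out. In the interaction 0 to 3 clock genes were called, and 732 to 1468 of all genes against 1113. The untreated Clock difference was -0.0026 with limma voom and ran from -0.0079 to 0.0321 with 1 library left out. Under treatment, total-count scaling turned Clock to 0.0588 and Tef to 0.0683, and leaving out 1 library gave Per2 -0.0072 to 0.1764, Per3 -0.047 to 0.1055 and Dbp -0.4574 to 0.0049. The interaction of Per1 was 0.0002 with total-count scaling and -0.1184 to 0.0221 with 1 library left out, and that of Per3 was -0.1342 to 0.0185. None of these values passed the test. Total-count scaling split all called genes into 5024 higher and 1722 lower (knock-in, untreated), 2358 and 5338 (drug, wild type), 2066 and 4352 (drug, knock-in), 5950 and 1867 (knock-in, treated) and 663 and 519 (interaction), against 2884 and 2918, 3553 and 3496, 2832 and 2989, 3218 and 3447, and 435 and 678 with TMM. With the replicate block, 6, 8, 8, 5 and 3 clock genes were called, and 5775, 7023, 5761, 6638 and 1130 of all genes. Same-numbered libraries did not deviate together (r from -0.026 to 0.063 over 18 pairs), so the numbers were not taken as pairs. DESeq2 gave no adjusted p for the interaction of Dbp. At 14 to 32 counts per library, depth limits Dbp.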
